A study of Mus musculus with 16 samples.

Results

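Hippocampal gene expression was compared between Astro-D2KO mice in status epilepticus (SE), a prolonged seizure, and Astro-D2KO mice given saline. The comparison took the 4 arrays labelled as Astro-D2KO mice with SE and the 4 labelled as Astro-D2KO mice under saline, 8 of the 16 arrays of the series, and read them across 22180 genes. The other 8 arrays, 4 of control mice with SE and 4 of control mice under saline, served to test whether the response differed between genotypes. The study asked whether SE alters thyroid hormone metabolism and action in the brain and how it bears on the acute response of the hippocampus.

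All mice were C57BL/6 and 8 to 10 weeks old. Astro-D2KO mice carried a floxed D2, the type 2 deiodinase encoded by Dio2, together with a cre labelled as glial. Control mice were labelled wild type with the same cre, so that the cre was present in all 4 groups. Lithium chloride, which lowers the threshold for seizures, was given to all groups at 10 mEq/kg, 18 h ahead of either pilocarpine at 65 mg/kg or saline. Pilocarpine is an agonist of muscarinic acetylcholine receptors. The SE mice received it and the saline mice did not, so a direct action of the drug and one of the seizures cannot be told apart. The labels do not state the promoter that drives the cre, how long after pilocarpine the tissue was taken, whether the mice were male or female, or a processing batch. The labels number the mice of a group from 1 to 4, with 1 array each.

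The type 2 deiodinase converts the prohormone thyroxine into the active hormone T3, and in the brain it is made mainly by astrocytes and by tanycytes. Strong neuronal firing switches on immediate early genes, which need no new protein synthesis. Their products are transcription factors and regulators of synapses and signalling, followed by secreted growth factors and neuropeptides. Seizures are also known to call up heat shock proteins, inflammatory mediators and stress hormones in the hippocampus.

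Values are log2 RMA values, in which a difference of 1 is a 2-fold change. Errors given with ± after a change are standard errors of the limma fit, which shared 1 spread per gene over the 4 groups of 4. A gene was called when its p-value, adjusted by Benjamini-Hochberg over the 22180 genes, was under 0.05, and the words rose and fell are kept for such genes. Correlations among the 8 arrays ran from 0.972 to 0.990. Their first principal component took up 55% of the variance and set the 4 SE arrays, at 23.06 to 25.68, apart from the 4 saline arrays, at -31.29 to -16.91.

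Dio2, the targeted gene, stood at 6.75, 6.52, 7.09 and 6.77 in the Astro-D2KO saline mice, replicates 1 to 4, and at 7.87, 8.25, 8.17 and 8.28 in control mice under saline. The groups did not overlap, and the Astro-D2KO mean was 2.57-fold lower (exact two-sided permutation p = 0.0286, the smallest that 4 arrays against 4 can give). The limma fit over all genes gave a difference of -1.36 ± 0.35 with an adjusted p of 0.999, so this difference did not pass across all genes. After SE the Astro-D2KO arrays stood at 8.91, 7.03, 7.17 and 7.12 and the control arrays at 9.51, 9.11, 9.24 and 7.99. The array labelled Astro-D2KO SE replicate 1 thus lay 1.75 above the nearest other array of its group. Its value of 8.91 fell inside the control SE range only because that range reached down to 7.99, and it stayed under 9.11, 9.24 and 9.51. Whether its label is right was not tested. In the control SE group, the array labelled replicate 4 was the lowest. A dimmer probe set of Dio2 differed by -0.09 between the genotypes under saline (exact permutation p = 0.686), and it is not stated whether either probe set lies within the deleted stretch, outside of which a probe set would check nothing. Both arrays were kept in their labelled groups.

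SE went with a change in 20.1% of the genes of Astro-D2KO mice, 4459 of 22180. Of these, 1661 rose (7.49% of all genes) and 2798 fell (12.6%), with median changes of 0.53 and -0.41 among the risen and the fallen. The large changes were mostly rises. At least a 2-fold rise was called for 274 genes (1.24%) and at least a 2-fold fall for 39 (0.176%), and at least a 4-fold change for 53 that rose and 2 that fell. The median of all genes was -0.01. Without the array labelled Astro-D2KO SE replicate 1 there were 1407 rises and 2316 falls.

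The 4 SE arrays and the 4 saline arrays did not overlap for 5467 genes (24.6%), and 4018 of those were also called. The 15 largest rises and 15 largest falls among called genes without overlap are drawn for each array in the plot of largest changes.

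**Figure D1:**
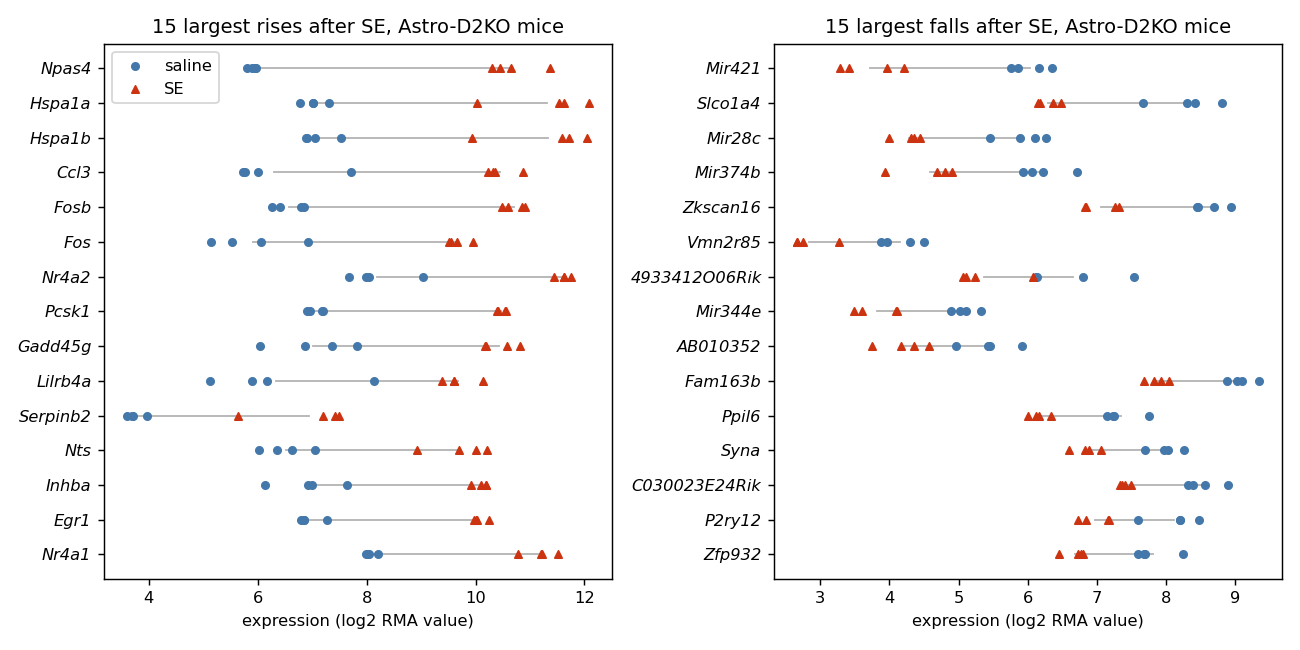
Expression (log2 RMA value, x axis) of the 15 genes with the largest rise (left) and the 15 with the largest fall (right) in Astro-D2KO mice, 1 point per mouse, with saline as circles, SE as triangles and a grey line between the group means. Npas4 rose from about 5.9 in all 4 saline arrays to between 10.31 and 11.36, Serpinb2 has 1 SE array at 5.63 against 7.20 to 7.50 in the others, and the falls are smaller than the rises.

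Immediate early transcription factors rose almost as a whole. Of the 31 measured, 27 rose and 0 fell, with a median change of 1.52 against -0.01 over all genes. In control mice 28 rose and 0 fell, where 8.42% of all genes rose and 13.7% fell. Npas4, a transcription factor of neurons that calcium influx switches on, showed the largest rise of all genes. It stood at 5.797, 5.95, 5.97 and 5.90 under saline and at 10.31, 10.65, 10.44 and 11.36 after SE. The 4 saline mice lay close together, all far below the SE mice, and the rise was 4.78 ± 0.39, or 27.6-fold (limma adjusted p = 2.67e-07).

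Fosb and Fos encode partners of Jun proteins in the AP-1 transcription factor. Fosb stood at 6.41, 6.86, 6.27 and 6.79 under saline and at 10.85, 10.49, 10.60 and 10.91 after SE, a rise of 4.13 ± 0.17 (limma adjusted p = 1.1e-10). Fos stood at 5.52, 6.07, 5.14 and 6.93 under saline and at 9.65, 9.55, 9.52 and 9.96 after SE, a rise of 3.76 ± 0.33. Saline replicate 4 was the highest saline array for Fos and still 2.59 below the lowest SE array. The nuclear receptors Nr4a2 (3.43 ± 0.26) and Nr4a1 (3.12 ± 0.18), which act without a known hormone, were also among the 15 largest rises. So was Egr1, a zinc finger factor, which rose by 3.12 ± 0.15 and whose SE arrays lay between 9.97 and 10.25.

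Effectors that act at synapses or on signalling cascades rose to a like extent. Of 33 measured, 31 rose and 0 fell, with a median of 1.61, and in control mice 31 rose and 0 fell. Gadd45g, of a family that links stress kinases to DNA demethylation, stood at 6.87, 7.37, 6.05 and 7.82 under saline and at 10.17, 10.58, 10.81 and 10.19 after SE. Saline replicates 3 and 4 were its lowest and highest saline arrays, and the rise was 3.41 ± 0.33 (10.7-fold). Ptgs2, the inducible cyclooxygenase, rose by 2.72 ± 0.16, with SE arrays from 11.80 to 12.14 and saline arrays from 8.78 to 9.43. Arc, a synaptic protein that governs uptake of AMPA receptors, rose by 2.56 ± 0.17, from between 7.98 and 8.61 to between 10.59 and 11.14. In control mice the rise of Arc was 3.11. The difference between the genotypes, -0.55 ± 0.24, had an unadjusted p of 0.035 and was not called (limma adjusted p = 0.998).

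Secreted growth factors rose in part. Of 21 neurotrophins, activin subunits and other secreted factors, 11 rose and 0 fell, with a median of 0.41, and in control mice 12 rose and 0 fell. The count fell to 7 when either Astro-D2KO saline replicate 1 or Astro-D2KO SE replicate 3 was left out. Inhba, the beta A subunit of activin, stood at 7.00, 6.92, 6.14 and 7.63 under saline and at 10.19, 10.10, 9.92 and 10.19 after SE, a rise of 3.18 ± 0.30 (limma adjusted p = 1.01e-06). The SE arrays of Inhba lay within 0.27 of each other, and the saline arrays spread over 1.49. Nptx2, a secreted pentraxin that gathers AMPA receptors at synapses, rose by 2.31 ± 0.32. Its saline replicate 3, at 6.47, lay apart from the other saline arrays at 8.12 to 8.29. Bdnf, the neurotrophin of the TrkB receptor, rose by 2.02 ± 0.12, from between 6.31 and 6.83 to between 8.50 and 8.76.

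Among 24 neuropeptides and proteins of prohormone processing, 11 rose and 0 fell, with a median of 0.52, and in control mice 11 rose and 1 fell. Pcsk1, the prohormone convertase that cuts peptide precursors in secretory granules, had the smallest adjusted p of all genes. It stood at 6.91, 6.95, 7.20 and 7.17 under saline and at 10.54, 10.41, 10.39 and 10.56 after SE. Both groups were tight, and the rise was 3.42 ± 0.094 (10.7-fold, limma adjusted p = 1.89e-13). Nts, the neurotensin precursor, rose by 3.20 ± 0.25, with SE replicate 4 at 8.93 and the other SE arrays at 9.70 to 10.21. Adcyap1, the precursor of the peptide PACAP, rose by 2.21 ± 0.20, from between 4.92 and 5.60 to between 7.24 and 8.00.

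The cAMP response element (CRE) TGACGTCA is the site bound by CREB, a factor that neuronal activity phosphorylates. RefSeq promoter windows of GRCm38.p6, which run from 250 bases before to 50 bases after a gene's start, were at hand for 21 of the 24 neuropeptide and processing genes. A gene was counted for a motif if any of its windows held it. Of all 27025 genes with a window, 549 held the CRE (2.03%), as did 447 of the 16918 measured ones (2.64%). The CRE, which reads the same on both strands, was in 4 of the 21 genes (19.05%), namely Pcsk1, Sst, Scg2 and Chgb. These 4 are shown because they hold the same 8 letters and did not all move. Each line gives the bases just before the start, with the CRE in capitals, from chr13:75089742-75089856 on the plus strand for Pcsk1, chr16:23890845-23890959 on the minus strand for Sst, chr1:79440027-79440141 on the minus strand for Scg2 and chr2:132781527-132781641 on the plus strand for Chgb.
Pcsk1: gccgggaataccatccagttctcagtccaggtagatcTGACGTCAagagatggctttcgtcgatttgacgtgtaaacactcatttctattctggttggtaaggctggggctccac
Sst: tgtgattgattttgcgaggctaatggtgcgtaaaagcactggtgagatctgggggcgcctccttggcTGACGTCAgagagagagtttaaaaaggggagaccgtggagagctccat
Scg2: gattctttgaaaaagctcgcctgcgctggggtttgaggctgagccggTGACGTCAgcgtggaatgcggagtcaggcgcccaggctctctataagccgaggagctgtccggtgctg
Chgb: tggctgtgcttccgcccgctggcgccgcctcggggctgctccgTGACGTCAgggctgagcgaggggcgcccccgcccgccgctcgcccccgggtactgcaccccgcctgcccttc
The CRE began at -78, -48, -68 and -72 from the start of Pcsk1, Sst, Scg2 and Chgb. Beside the rise of Pcsk1, Scg2, the secretogranin II precursor, rose by 1.73 ± 0.19, and Sst, the somatostatin precursor of interneurons, rose by 0.60 ± 0.11. Chgb, chromogranin B of the same granules, differed by -0.06 ± 0.11 (limma adjusted p = 0.773), with saline arrays from 10.26 to 10.61 and SE arrays from 10.23 to 10.45. A match in the letters is a description of the window and does not show that a factor binds there. Of the 15 largest rises, 13 had a window, and the CRE was in 1 of them (7.69%). The AP-1 site TGANTCA was in 2 (15.38%, against 8.97% of all genes with a window and 8.39% of the measured ones). The letters TATAAA, those of the TATA box, were in 5 at any position (38.46%, against 15.67% and 14.32%). They began at -33 in Fos, at -27 in Gadd45g and at -29 or -116 in Serpinb2, by the start taken. In Inhba they began at -91, and in Nr4a2 at -164 on the other strand. The count is thus of letters and not of TATA boxes at work. Each motif was counted on both strands.

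Heat shock proteins held some of the largest rises. Of 22 measured heat shock proteins and co-chaperones, 11 rose and 0 fell, with a median of 0.32, and 13 rose and 0 fell in control mice. Hspa1a, an inducible Hsp70 chaperone that refolds damaged proteins, stood at 7.01, 6.77, 7.30 and 7.01 under saline and at 11.54, 12.09, 11.63 and 10.02 after SE. SE replicate 4 was the lowest SE array and still 2.72 above the highest saline array, and the rise was 4.30 ± 0.32 (19.7-fold, limma adjusted p = 1.01e-07). Hspa1b, its near-identical neighbour, rose by 4.23 ± 0.33, with SE arrays from 9.94 to 12.06 and saline arrays from 6.89 to 7.53. The 250 bases before the start are the same at 247 positions (98.8%) in the 2 genes, and whether the probe sets tell their transcripts apart is not known, so the split between them is uncertain. Bag3, a co-chaperone of Hsp70, rose by 1.99 ± 0.20.

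The heat shock element, searched as GAANNTTC on both strands, was in 10 of the 19 heat shock genes with a window (52.6%). It was in 2442 of all 27025 genes with a window (9.04%) and in 1379 of the 16918 measured ones (8.15%). The stretch before Hspa1a, the gene with the largest rise on the list, is shown from GRCm38.p6 chr17:34972157-34972271 on the minus strand, with the element, which begins at -104, in capitals.
Hspa1a: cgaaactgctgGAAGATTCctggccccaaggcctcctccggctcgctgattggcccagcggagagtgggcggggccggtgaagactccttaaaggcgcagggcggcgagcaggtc
Of the 10 genes with the element, Hspa1a, Hspa1b, Bag3, Hspb1 and Hsph1 rose. Hsph1, a nucleotide exchange factor of Hsp70, rose by 0.78 ± 0.16, and Hspb1, a small heat shock protein, by 1.18 ± 0.39. The call of Hspb1 was lost without Astro-D2KO saline replicate 1, 2 or 3, SE replicate 2 or 3, or control saline replicate 2. The other 5 did not pass, namely Hspb8 (0.46, limma adjusted p = 0.0642), Hspe1 (0.25), Hspd1 (0.17), Fkbp4 (0.02) and Chordc1 (0.01). Hspd1 and Hspe1, which encode the mitochondrial chaperonins, are divergent neighbours whose windows overlap. The element found in both lies on the same bases, so the same site was counted for each gene. Hspa1a and Hspa1b both hold it at -104 in near-identical stretches. The 10 genes therefore do not hold independent sites.

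Genes of the integrated stress response and the unfolded protein response rose in 11 of 23 cases and fell in 0, with a median of 0.33, against 13 and 0 in control mice. Atf3, a stress-induced transcription factor shared with the immediate early list, rose by 2.99 ± 0.18, from between 6.49 and 7.24 to between 9.64 and 10.10. Sesn2, a sestrin that restrains growth signalling, rose by 1.21 ± 0.18, and Slc7a11, the cystine-glutamate exchanger, by 1.08 ± 0.23. Of 19 NRF2 targets and metallothioneins, 7 rose and 2 fell, the same counts as in control mice, with a median of 0.13. The shares were 36.8% and 10.5%, against 7.49% and 12.6% of all genes. Hmox1, heme oxygenase 1, stood at 6.48, 6.01, 5.36 and 6.78 under saline and at 8.22, 8.45, 8.66 and 7.39 after SE. Its rise was 2.02 ± 0.34, and SE replicate 4 was again the SE array nearest to the saline group. Srxn1, which repairs oxidised peroxiredoxins, rose by 1.04 ± 0.19.

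Of 20 genes known to respond to glucocorticoids, 12 rose and 1 fell, with a median of 0.56, and the counts in control mice were 12 and 1. Dusp1, a phosphatase that switches off MAP kinases, rose by 2.39 ± 0.20, and Errfi1, an inhibitor of the EGF receptor, by 2.00 ± 0.14. Both are also on the list of immediate early effectors, so the lists are not independent. Of 14 genes of p53 and DNA damage, 7 rose and 2 fell, against 6 and 2 in control mice. The shares in Astro-D2KO mice were 50% and 14.3%, against 7.49% and 12.6% of all genes. Without the array labelled Astro-D2KO SE replicate 1 the counts were 5 and 1, and 1 fell likewise without saline replicate 1, 2 or 3 or SE replicate 2 or 3. The falls were of Sesn1, a sestrin (-0.65 ± 0.15), and Trp53inp1 (-0.36 ± 0.11). Cdkn1a, the cell cycle inhibitor p21, rose by 1.91 ± 0.33, from between 7.35 and 9.02 to between 10.06 and 10.36. Btg2, an antiproliferative factor, rose by 1.98 ± 0.18, and Plk3, a stress kinase, by 1.05 ± 0.17.

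Inflammatory mediators and interferon-stimulated genes were read apart. Of 37 cytokines, chemokines and genes of NF-kB feedback, 21 rose and 0 fell, with a median of 0.52, and in control mice 23 rose and 0 fell. Ccl3, a chemokine made by microglia, stood at 5.73, 5.77, 6.00 and 7.71 under saline and at 10.23, 10.37, 10.88 and 10.32 after SE. Saline replicate 4 lay well above the other saline mice and still below all SE mice, and the rise was 4.15 ± 0.41 (17.7-fold, limma adjusted p = 1.9e-06). Lilrb4a, an inhibitory receptor of myeloid cells, showed the same saline replicate 4 as highest, at 8.13 against 5.12 to 6.17, and rose by 3.35 ± 0.59. Osmr, the receptor of oncostatin M, rose by 1.57 ± 0.40, and Socs3, which shuts off its signalling, by 1.36 ± 0.22. Of 16 interferon-stimulated genes, 0 rose and 1 fell. That gene, Stat2, fell by 0.43 ± 0.15 (limma adjusted p = 0.0443), and its call was lost when Astro-D2KO saline replicate 1, 2 or 4 or SE replicate 1, 2 or 4 or control SE replicate 3 was left out (adjusted p up to 0.147).

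Reactive astrocyte genes were of interest because the deletion is aimed at astrocytes. Of 13 pan-reactive genes 4 rose and 0 fell, with a median of 0.67, and 2 rose in control mice. The count depended on single mice, being 2 without Astro-D2KO saline replicate 1, saline replicate 3 or SE replicate 3, and 7 without saline replicate 4. Beside Osmr and Hspb1, Vim, an intermediate filament of reactive astrocytes, rose by 0.93 ± 0.31 (limma adjusted p = 0.0395), and this call too was lost without Astro-D2KO saline replicate 1, 2 or 3 or SE replicate 2, 3 or 4. The last of the 4 was Steap4, a metalloreductase (0.44 ± 0.12). Gfap, the defining filament of astrocytes, stood at 10.52, 10.83, 9.62 and 11.20 under saline and at 10.71, 11.02, 11.47 and 10.90 after SE. Its groups overlapped, and the difference of 0.48 ± 0.32 did not pass (limma adjusted p = 0.349). Of 8 genes of the A1 class, 1 rose (12.5%, against 7.49% of all genes), namely Srgn, a proteoglycan core protein, by 1.03 ± 0.12. Of 12 of the A2 class, 6 rose and 0 fell, with a median of 0.94. They included Ptgs2, Cd14, a co-receptor for endotoxin, by 2.43 ± 0.15, and Emp1, a membrane protein, 2.82-fold. Saline replicate 4 was at 8.58 for Emp1, above SE replicates 1, 2 and 4, while the other saline arrays were at 6.21 to 6.62.

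The genes that move and sense thyroid hormone changed little, with 1 large exception. Of 19 measured genes of thyroid hormone metabolism, transport and reception, 3 rose and 2 fell, with a median of -0.07. The shares were 15.8% and 10.5%, against 7.49% and 12.6% of all genes. Slco1a4, a carrier of organic anions and thyroxine in the vessel wall, stood at 8.31, 8.43, 8.81 and 7.67 under saline and at 6.49, 6.17, 6.37 and 6.15 after SE. The groups lay 1.18 apart, and Slco1a4 fell by 2.01 ± 0.21, a 4.02-fold fall (limma adjusted p = 4.52e-06). Subunits of amino acid transporters that also carry thyroid hormone were the 3 rises, Slc3a2 by 0.61 ± 0.11, Slc7a8 by 0.51 ± 0.10 and Slc7a5 by 0.47 ± 0.13. The call of Slc7a5 was lost without Astro-D2KO saline replicate 3 (adjusted p = 0.0532). Ncoa1, a nuclear receptor coactivator, fell by 0.32 ± 0.075.

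Neither the deiodinases nor the receptors passed. The difference for Dio2 was 0.77 ± 0.35 (limma adjusted p = 0.138, exact permutation p = 0.0571). Without the array labelled Astro-D2KO SE replicate 1 it was 0.32 ± 0.25 (limma adjusted p = 0.445), with the remaining SE arrays at 7.03 to 7.17. Dio1 and Dio3, the other deiodinases, differed by 0.04 ± 0.10 and -0.01 ± 0.11, and the receptors Thra and Thrb by -0.20 ± 0.084 (limma adjusted p = 0.102) and -0.07 ± 0.11. Differences for Slco1c1 (-0.31), the thyroxine transporter of vessels and astrocytes, Slc16a10 (-0.07), Crym (-0.17), Slc17a4 (-0.06), Med1 (-0.13) and the retinoid X receptors Rxra (0.06), Rxrb (-0.13) and Rxrg (-0.05) did not pass either. Ttr, the carrier protein that the choroid plexus makes in bulk, ran from 8.84 to 12.66 under saline and from 7.45 to 13.03 after SE, with a difference of -0.98 ± 1.22.

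Genes known to respond to T3 in brain were read as 2 lists, which share Cirbp, an RNA-binding protein that was not called (-0.11 ± 0.10). Of 20 genes raised by T3, 2 rose (10%, against 7.49% of all genes) and 3 fell (15%, against 12.6%), with a median of -0.12. Of 10 lowered by T3, 1 rose (10%) and 0 fell. In control mice the counts were 2 and 3, and 1 and 2. Dbp, a clock factor, fell by 0.96 ± 0.28 and Cyp11a1, the enzyme that starts steroid synthesis, by 0.74 ± 0.14, while Klf9, a transcription factor, rose by 0.44 ± 0.093. The other calls were of Mbp, the myelin basic protein (-0.31 ± 0.095), and of the neurofilament gene Nefm (0.42 ± 0.097). The gene that rose on the list lowered by T3 was Aldh1a3, a retinoic acid synthesising enzyme, which went from between 5.57 and 5.90 to between 6.95 and 7.38, a rise of 1.42 ± 0.11 (limma adjusted p = 1.49e-07). Without SE replicate 2 only 1 gene fell on the first list, without saline replicate 4 there was 1 fall on the second, and Dbp was lost without saline replicate 3 or SE replicate 2 or 4.

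Cholesterol synthesis and the respiratory chain were read as lists of metabolism. Of 17 genes of cholesterol synthesis and uptake, 9 rose and 0 fell, with a median of 0.38, as 9 and 0 did in control mice. Pmvk rose by 1.53 ± 0.13, Msmo1 by 1.15 ± 0.087 and Cyp51 by 1.00 ± 0.099, all enzymes of the pathway and all without overlap between the groups. Of 30 genes of the respiratory chain and ATP synthase, 0 rose and 7 fell, with a median of -0.16, against 12 falls in control mice. The share that fell in Astro-D2KO mice was 23.3%, against 12.6% of all genes. Sdhc, of complex II, fell by 0.53 ± 0.093, and Ndufs4 and Ndufs1, of complex I, fell by 0.32 ± 0.097 and 0.31 ± 0.071. Only 4 fell without Astro-D2KO saline replicate 3 or SE replicate 3, and Ndufs4 lost its call in both cases and without SE replicate 1. Of 23 genes of glycolysis and of glucose and lactate transport, 6 rose (26.1%, against 7.49% of all genes) and 4 fell (17.4%, against 12.6%). The leading rises were of carriers, namely Slc16a1 for lactate (1.48 ± 0.14) and the glucose transporters Slc2a3 of neurons and Slc2a1 of vessels (0.82 each, ± 0.083 and ± 0.091).

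Of 19 circadian clock genes, 7 rose (36.8%, against 7.49% of all genes) and 2 fell (10.5%, against 12.6%). The falls were of Dbp and its relative Tef (-0.52 ± 0.17). Nfil3, a repressor that opposes Dbp, rose by 2.18 ± 0.15, from between 6.49 and 6.89 to between 8.65 and 8.99, and Per1, a repressor within the clock loop, rose by 1.37 ± 0.15. Between 0 and 4 clock genes fell when 1 array was left out, with 0 without Astro-D2KO saline replicate 3 or SE replicate 2 or 4, 1 without Astro-D2KO saline replicate 2 or control SE replicate 3, and 4 without control saline replicate 1 or Astro-D2KO saline replicate 1.

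Receptors and channels moved less than the activity genes. Of 26 glutamate receptors and scaffolds, 0 rose and 4 fell, with a median of -0.18. The share that fell, 15.4%, was near the 12.6% of all genes. Grm2, a presynaptic metabotropic receptor, fell by 0.85 ± 0.16, from between 9.32 and 9.73 to between 8.45 and 8.97. Cacng8, an auxiliary subunit of AMPA receptors, fell by 0.39 ± 0.095, and Gria4, an AMPA receptor subunit, by 0.41 ± 0.14, with a limma adjusted p of 0.0495. The fourth was the kainate receptor subunit Grik5 (-0.20 ± 0.068). There was 1 rise without Astro-D2KO saline replicate 2, SE replicate 1 or control SE replicate 1. The falls numbered 2 without Astro-D2KO saline replicate 1 or 2, SE replicate 2 or 3, or any control saline array, and Gria4 lost its call in all of these cases and without saline replicate 3 or 4 or SE replicate 1, 11 of the 16 leave-outs. Of 16 genes of GABA signalling, 3 rose (18.8%, against 7.49% of all genes) and 2 fell (12.5%, against 12.6%). The rises were of Gabra2 and Gabra4, receptor subunits (0.68 ± 0.12 and 0.36 ± 0.12), and Gad1, which makes GABA (0.68 ± 0.13). The falls were of Slc32a1, which loads GABA into vesicles (-0.33 ± 0.095), and Gabbr2, a GABA-B receptor subunit (-0.32 ± 0.078), with 1 fall without Astro-D2KO saline replicate 1 or 3 or SE replicate 2 or 3. The call of Gabra4 was lost without Astro-D2KO saline replicate 1 or 4 or SE replicate 1, 2 or 3.

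Of 31 voltage-gated channel genes, 2 rose and 9 fell, with a median of -0.17, and in control mice 2 rose and 7 fell. The shares in Astro-D2KO mice were 6.45% and 29%, against 7.49% and 12.6% of all genes. The rises were of potassium channel subunits, Kcnf1 by 1.12 ± 0.13 and Kcna4 by 1.06 ± 0.19. Another, Kcna2, which sits beside the nodes of axons, fell by 0.73 ± 0.13, with SE replicate 4 at 8.80 and the other SE arrays at 8.46 to 8.49. Among 14 muscarinic and cholinergic genes, whose receptors pilocarpine acts on, 2 rose and 2 fell (14.3% each, against 7.49% and 12.6% of all genes). The muscarinic receptors Chrm4 and Chrm3 rose by 0.63 ± 0.13 and 0.55 ± 0.13, and the nicotinic subunit Chrna7 fell by 0.47 ± 0.12 and Chrnb2 by 0.32 ± 0.089, with 1 fall without SE replicate 4. For Chrm3, saline replicate 3 at 8.43 lay above SE replicate 4 at 8.32.

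The primary cilium is an antenna-like organelle, and most measured genes of it and of transport within it fell. Of 25 measured, 16 fell and 2 rose, with a median of -0.43 against -0.01 over all genes, and in control mice 17 fell and 2 rose. Wdr19, a subunit of the retrograde transport complex, stood at 8.03, 7.88, 8.07 and 7.90 under saline and at 6.60, 6.99, 6.97 and 7.08 after SE. The groups lay 0.80 apart, and Wdr19 fell by 1.06 ± 0.098 (limma adjusted p = 8.35e-07). Cep290, a gatekeeper at the base of the cilium, fell by 0.79 ± 0.098, and Bbs7, of the BBSome cargo adaptor, by 0.76 ± 0.095. The 2 rises were of Bbs5, another BBSome subunit (0.49 ± 0.094), and Ift172, of the anterograde complex (0.34 ± 0.098), and 1 rose without Astro-D2KO saline replicate 4 or SE replicate 1 or 4. Cep290 fell by 0.45 in control mice, and the difference of -0.34 ± 0.14 had an unadjusted p of 0.024 and was not called. This list was drawn up with falls of Wdr19 and like genes in view, so its count is not independent evidence of the direction.

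Zinc finger genes had more falls than rises, as all genes did, with a larger share of falls than over all genes. Of 399 measured genes with Zfp, Zkscan, Zscan or Zik names, 107 fell (26.8%) and 20 rose (5.01%), with a median of -0.15. Over all genes 12.6% fell and 7.49% rose, with a median of -0.01. In control mice 112 of the 399 fell and 20 rose. Zkscan16 stood at 8.47, 8.45, 8.95 and 8.70 under saline and at 6.84, 7.27, 6.84 and 7.32 after SE, and fell by 1.58 ± 0.16. Zfp932 fell by 1.12 ± 0.13. The 2 leading rises on the list were of Zfp36 (2.78 ± 0.38), which is not a DNA-binding factor of this kind but a protein that binds AU-rich RNA and hastens its decay, and of Zfp948 (1.39 ± 0.14). Zfp36 stood at 7.19 in saline replicate 4 and at 5.54 to 5.68 in the other saline mice.

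MicroRNA genes gave 3 of the 4 largest falls without overlap. Of 478 measured, 37 rose and 29 fell, with a median of 0.04, where 7.49% of all genes rose and 12.6% fell. The RefSeq table of miRNAs held 426 of the 478. It is not stated whether a probe set sees the precursor, the mature form or a host transcript. Mir421 stood at 5.77, 5.86, 6.35 and 6.17 under saline and at 3.96, 4.21, 3.42 and 3.28 after SE, and fell by 2.32 ± 0.24 (4.98-fold, limma adjusted p = 2.65e-06). Mir374b fell by 1.65 ± 0.22, and Mir28c, which the table does not list, by 1.65 ± 0.19. Mir421 and Mir374b lie next to each other at chrX:103572921-103572996 and chrX:103573060-103573154 on the minus strand of GRCm38.p6, within the span of Ftx, a long noncoding RNA of the X inactivation centre (chrX:103560910-103623754, minus strand). Ftx itself fell by 1.06 ± 0.11, from between 8.26 and 8.72 to between 7.23 and 7.51.

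The mature sequences are shown for these genes, for Mir344e, which fell by 1.27 ± 0.23, and for Mir212 and Mir132, a pair of neighbours that rose. The pair and Ftx were picked after their values were seen. Capitals mark the seed, bases 2 to 8, through which a miRNA finds its targets.
miR-132-3p: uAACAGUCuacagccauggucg
miR-212-3p: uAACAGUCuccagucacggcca
miR-421-5p: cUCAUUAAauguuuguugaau
miR-374b-5p: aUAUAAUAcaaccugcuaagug
miR-374b-3p: gGUUGUAUuaucauuguccgag
miR-344e-3p: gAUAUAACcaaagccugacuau
The 3p arms of miR-132 and miR-212 share the seed AACAGUC, and no other seed printed here is shared. Their genes lie at chr11:75173682-75173747 and chr11:75173388-75173478 on the plus strand. Mir212 stood at 5.76, 6.00, 5.75 and 5.82 under saline and at 8.15, 7.49, 7.72 and 8.32 after SE, a rise of 2.09 ± 0.17 (limma adjusted p = 2.32e-07). Mir132 stood at 3.99, 4.21, 4.15 and 4.58 and then at 6.62, 5.71, 5.75 and 6.55, a rise of 1.92 ± 0.22. SE replicates 1 and 4 were the higher ones for both genes. Of the 9 measured Mir344 genes, 5 fell and 0 rose, with a median of -0.65, and 2 fell in control mice. Of all 478 miRNA genes 29 fell, and of all genes 12.6%. The Mir344 genes had a low median level of 4.56. They were no planned list and include Mir344e, itself named as a large fall, so their count is not independent evidence. Mir344e fell by 1.27 in Astro-D2KO mice and differed by -0.34 in control mice, and the difference of -0.93 ± 0.32 (unadjusted p = 0.0094) was not called.

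**Figure D2:**
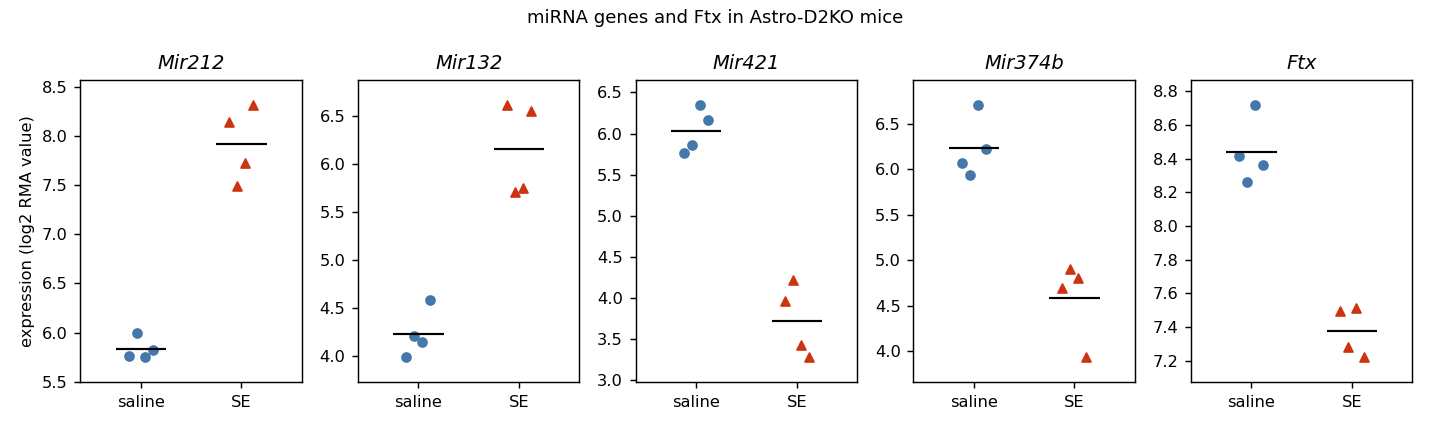
Expression (log2 RMA value, y axis, own scale in each panel) of 4 miRNA genes and of Ftx in Astro-D2KO mice, 1 point per mouse, with saline as circles, SE as triangles and a bar at each group mean. Mir212 and Mir132 lie higher in all 4 SE mice than in any saline mouse, and Mir421, Mir374b and Ftx lie lower.

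The remaining large falls were of genes with few common features. Among genes of known role were P2ry12, a purine receptor of resting microglia (-1.14 ± 0.17), and Syna, the envelope protein syncytin A of retroviral origin (-1.15 ± 0.15). Ppil6, of the cyclophilin family, fell by 1.19 ± 0.13 and Fam163b by 1.22 ± 0.16. Vmn2r85, a vomeronasal receptor gene that stood at 3.87 to 4.49 even under saline, fell by 1.32 ± 0.17. The others of the 15 were 4933412O06Rik (-1.28 ± 0.33), AB010352 (-1.22 ± 0.22) and C030023E24Rik (-1.15 ± 0.16). For 4933412O06Rik, SE replicate 1 at 6.07 lay just under the lowest saline array at 6.13.

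Markers of cell types were read because bulk tissue cannot tell fewer cells from less RNA per cell. Of 15 microglia markers, 7 fell and 0 rose, with a median of -0.34, and 5 fell in control mice. The share that fell in Astro-D2KO mice was 46.7%, against 12.6% of all genes. P2ry12 stood at 8.20, 8.20, 8.48 and 7.60 under saline and at 6.84, 6.73, 7.16 and 7.18 after SE, and Selplg (-0.98 ± 0.13) and P2ry13 (-0.85 ± 0.13) fell with it. The defining marker Tmem119 differed by -0.22 and did not pass (limma adjusted p = 0.26). The mean level of the 15 markers lay between 7.08 and 7.24 under saline and between 6.72 and 6.89 after SE. The part of this shift in the values of Ccl3 and Lilrb4a, which rose, was not tested.

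Of 11 oligodendrocyte markers, 4 fell and 0 rose, with a median of -0.25, and in control mice none of the 11 was called. The share that fell in Astro-D2KO mice was 36.4%, against 12.6% of all genes. The test of the difference between genotypes called 0 of the 11, with a median difference of -0.31. Aspa, which breaks down N-acetylaspartate, stood at 7.79, 7.34, 7.87 and 7.33 under saline and at 6.78, 5.96, 6.38 and 6.81 after SE. It fell by 1.10 ± 0.22, against -0.29 in control mice (difference -0.81 ± 0.31, unadjusted p = 0.018, not called). The myelin protein Mag fell by 0.44 ± 0.14 and Ugt8a, of myelin lipid synthesis, by 0.36 ± 0.11, and the fourth was Mbp. Mag lost its call without saline replicate 1, 2 or 4 or SE replicate 2 or 3 (limma adjusted p up to 0.108), and Ugt8a without saline replicate 1 or 3 or SE replicate 2 (up to 0.0887). Without Astro-D2KO saline replicate 1, 2 or 3 there were 2 falls, and without SE replicate 2 there was 1.

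Astrocyte markers stayed mostly uncalled, with 1 rise and 1 fall among 18 and a median of -0.12. These were 5.56% each, below the 7.49% and 12.6% of all genes. Sox9, an astrocyte transcription factor, rose by 0.59 ± 0.15, and Fgfr3, a growth factor receptor, fell by 0.74 ± 0.10. Aldh1l1, a defining marker, stood between 7.10 and 7.38 under saline and between 7.18 and 7.46 after SE. There were 5 falls without saline replicate 4 and 2 without SE replicate 4 or control SE replicate 4. Of 15 endothelial markers, 4 rose (26.7%, against 7.49% of all genes) and 2 fell (13.3%, near the 12.6% of all genes). Cdh5, the adhesion molecule of vessel walls, rose by 1.41 ± 0.17, and Slco1a4 fell. Abcb1a, the efflux pump of the vessel wall, was the other fall (-0.50 ± 0.17), and only 1 fell in 8 of the 16 leave-outs, among them Astro-D2KO saline replicates 1, 2 and 3 and SE replicates 2 and 4. Markers of choroid plexus (9), leptomeninges (10) and blood (5) gave 0 calls. Pericytes and oligodendrocyte precursors gave 1 fall each (9.09% and 11.1% of their markers, against 12.6% of all genes). These were Vtn (-0.67 ± 0.13) and Gpr17 (-0.60 ± 0.19). The call of Gpr17 was lost without Astro-D2KO saline replicate 1, 2 or 3 or SE replicate 2, 3 or 4. The mean choroid plexus level ran from 6.14 to 7.47 under saline and from 5.85 to 7.71 after SE, and the ranges overlapped.

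Of 5 lists of neuronal class markers, 3 held calls in both directions, where 7.49% of all genes rose and 12.6% fell. Rises made up 30.8% of the general neuron, 7.69% of the dentate granule cell and 12.5% of the interneuron markers. Falls made up 7.69%, 30.8% and 37.5% of them. The falls of general neuron markers and the rises of dentate markers were thus near or below the shares over all genes. Of 13 general neuron markers, 4 rose and 1 fell, among them the neurofilaments Nefl (0.77 ± 0.12) and Nefm (0.42 ± 0.097) and Gap43, a growth cone protein (0.33 ± 0.11), a call that was lost in 10 of the 16 leave-outs. Map2 of dendrites rose too (0.22 ± 0.064), and Rbfox3, the neuronal nuclear marker NeuN, fell by 0.25 ± 0.079, a call lost without SE replicate 1, 2 or 3 or any 1 of the Astro-D2KO saline arrays. Only 2 rose without saline replicate 1 or SE replicate 2 or 4. Of 13 dentate granule cell markers, 1 rose and 4 fell, with Dsp, a desmosome protein, at 7.23, 7.00, 8.08 and 6.64 under saline and at 5.78, 6.51, 6.19 and 6.21 after SE. Dsp fell by 1.06 ± 0.29, against -1.75 in control mice, and its call was lost without saline replicate 3 or SE replicate 1, when 2 members of the list fell. C1ql2 of mossy fibre synapses fell by 0.98 ± 0.20 and Stxbp6, which binds the fusion machinery, by 0.72 ± 0.18, and the other 2 calls were of Maml2 (-0.38 ± 0.12) and Npnt (0.47 ± 0.15), with 0 rises without saline replicate 1, 2 or 4 or SE replicate 2, 3 or 4, and 2 without saline replicate 3. Markers of CA1 (6) and of CA2 and CA3 (13) gave 0 calls, with 1 fall in the latter without Astro-D2KO saline replicate 3, SE replicate 4 or control saline or SE replicate 4. Of 16 interneuron markers, 2 rose and 6 fell, with Gad1 and Sst rising and Nxph1, a synaptic adhesion ligand, falling by 0.60 ± 0.13. The falls numbered 3 without saline replicate 3 and 2 without SE replicate 3. Calb2, calretinin, the 1 call among 13 thalamic markers too, fell by 0.98 ± 0.32 in a call lost without saline replicate 1, 2 or 3 or SE replicate 1 or 3.

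Markers of regions next to the hippocampus were read too, but their rises cannot check the dissection. Penk and Tac1 are also on the neuropeptide list, and Nr4a2 is on the list of immediate early transcription factors. A rise of such a gene cannot tell more tissue of that region from a response to SE. Of 6 striatal markers 3 rose, namely Penk (1.43 ± 0.28) and Tac1 (1.36 ± 0.18), both neuropeptide precursors, and Pde10a, a phosphodiesterase (0.56 ± 0.098), while the dopamine receptors Drd1 (0.29) and Drd2 (-0.32) did not pass. Of 10 neocortical markers 3 rose (30%, against 7.49% of all genes) and 1 fell (10%, against 12.6%). The rises were of Nr4a2, of Fezf2 (1.16 ± 0.13) and of Rorb (0.92 ± 0.15), transcription factors all. The fall was of Rasgrf2 (-0.57 ± 0.19), a call that was lost in 8 of the 16 leave-outs. Among these were Astro-D2KO saline replicates 3 and 4 and SE replicates 1, 2 and 3.

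**Figure D3:**
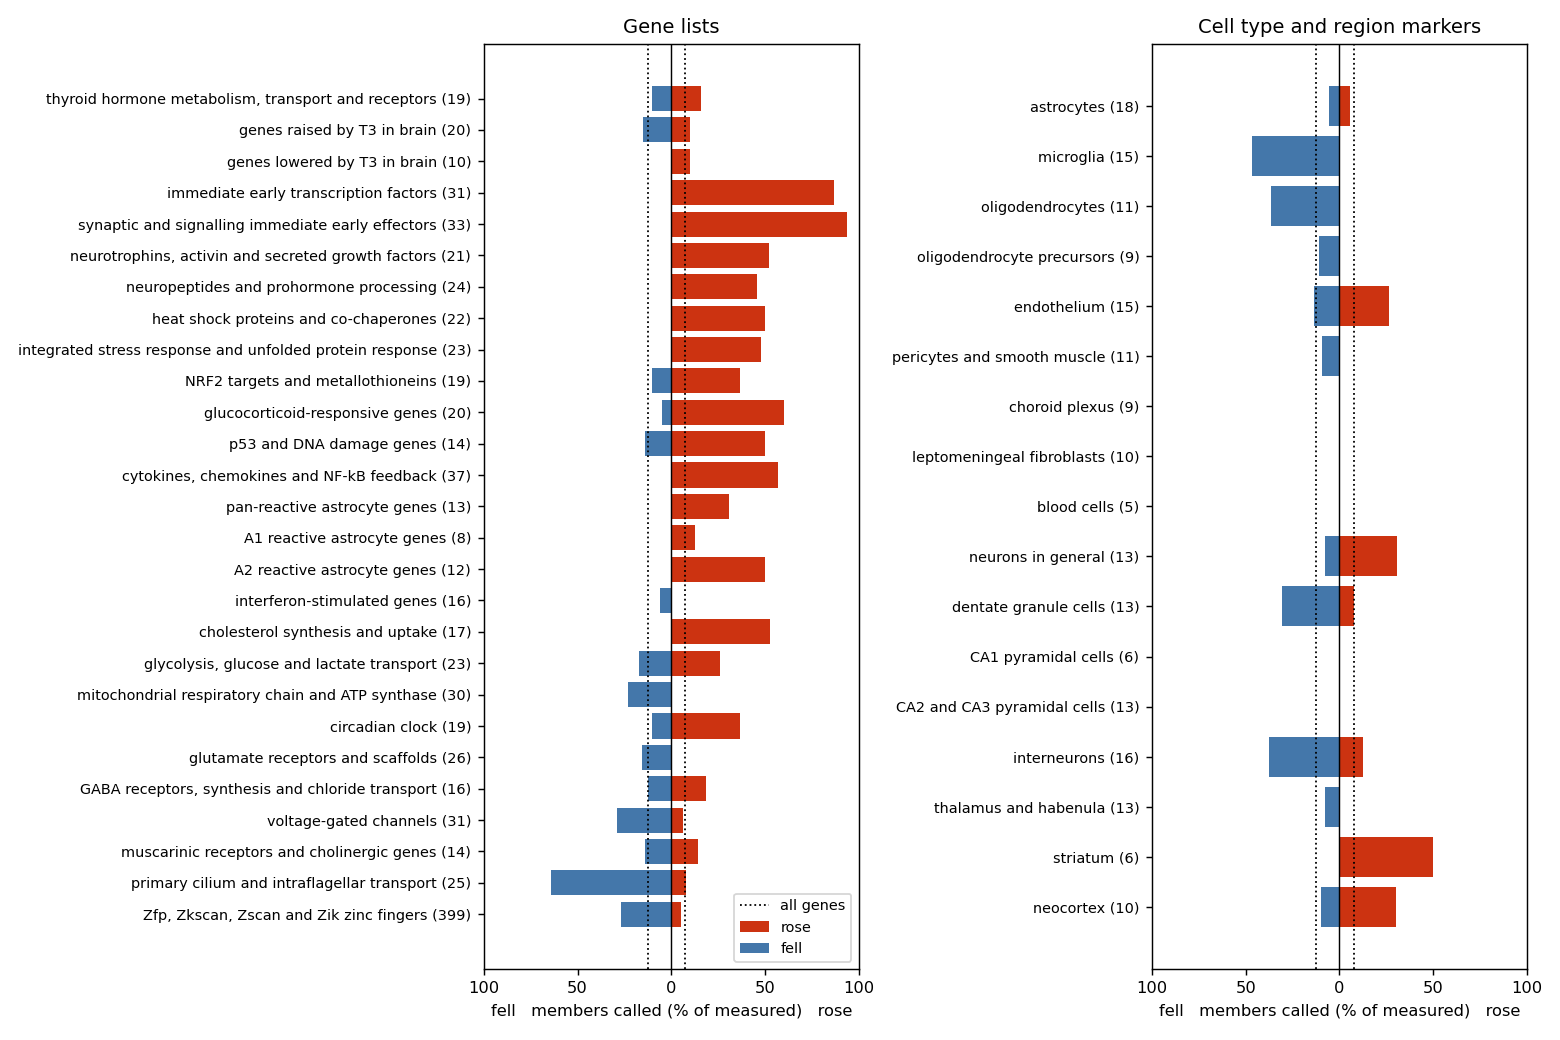
Share of the measured members of each gene list (left) and each marker list (right) that rose (red, to the right of 0) or fell (blue, to the left of 0) after SE in Astro-D2KO mice, in percent, with the number measured in brackets and dotted lines at the shares over all genes, 7.49% and 12.6%. The 2 immediate early lists reach farthest to the right, the cilium list reaches farthest to the left, and among marker lists the microglia bar reaches farthest to the left.

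The next comparison asked whether the response of Astro-D2KO mice differed from that of control mice. The test of the difference itself, the interaction in limma, called 0 of 22180 genes (0%), with 0 higher and 0 lower in Astro-D2KO mice and a smallest adjusted p of 0.971. At an unadjusted p under 0.05 there were 1031 genes (4.65%). In control mice SE went with a change of 4907 genes (22.1%). Of the genes called in Astro-D2KO mice, 73.3% were also called in control mice, and of those called in control mice, 66.6% were also called in Astro-D2KO mice. The shared genes moved the same way in 3267 cases and opposite ways in 3. A further 1189 genes were called in Astro-D2KO mice alone and 1637 in control mice alone, and 0 of the former passed the test of the difference.

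The 3 genes with opposite calls were Gm12409 (0.24 in Astro-D2KO mice against -0.32 in control mice), Olfr707 (0.35 against -0.27) and 4930539N22Rik (0.38 against -0.42). Each had a low level, under 5 in all Astro-D2KO arrays, and small changes. They were among the 10 genes with the smallest p for the difference, which ran from 0.55 ± 0.11 for Gm12409 (unadjusted p = 6.7e-05) to -0.91 ± 0.22 for Gucy2c, a receptor guanylate cyclase, which rose by 1.17 in control mice and differed by 0.26 in Astro-D2KO mice. The others were Gm16796 (-0.55), Gm8579 (-0.62), Tagap1 (-0.81), Gm7361 (-0.62), Pate7 (0.50) and Zfp992 (0.87), and none was called.

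**Figure D4:**
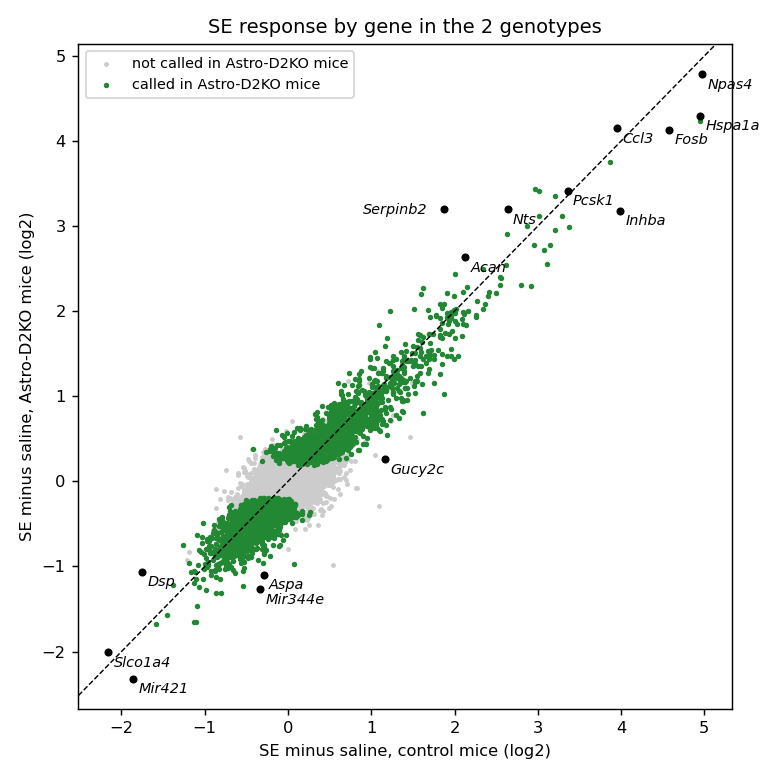
Change after SE in control mice (x axis, log2) against the change in Astro-D2KO mice (y axis, log2) for each of the 22180 genes, green where called in Astro-D2KO mice and grey where not, with a dashed line of equal change and 15 genes marked in black. Most called genes lie near the dashed line, Npas4, Hspa1a and Fosb lie at the upper end, and Serpinb2, Aspa and Mir344e lie to the sides of it without passing the test of the difference.

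Serpinb2, or PAI-2, an inhibitor of plasminogen activators that activity and inflammation induce, was among the 15 largest rises. It stood at 3.60, 3.96, 3.69 and 3.71 under saline and at 5.63, 7.50, 7.43 and 7.20 after SE in Astro-D2KO mice, a rise of 3.20 ± 0.64 (9.19-fold, limma adjusted p = 0.00165). In control mice it stood at 5.13, 4.37, 4.52 and 8.53 after SE, and the rise was 1.88 ± 0.64. The low Astro-D2KO SE array and the high control SE array were the same 2 arrays that stood apart from their groups on Dio2. With all arrays in their labelled groups, the difference between the genotypes was 1.32 ± 0.90 (limma adjusted p = 0.998) and was not called.

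Without both of these arrays, limma called 1 gene for the difference, and it was Serpinb2, at 2.72 ± 0.22 (adjusted p = 4.92e-05). Without control SE replicate 4 alone the difference was 2.28 ± 0.44 (adjusted p = 0.434), and without Astro-D2KO SE replicate 1 alone it was 1.76 ± 0.89 (adjusted p = 0.996). These 2 arrays were picked by their Dio2 values, and they were also the lowest Astro-D2KO SE array and the highest control SE array for Serpinb2. Leaving them out therefore widens the Serpinb2 difference and shrinks its spread. The call of Serpinb2 is a result of that choice and is not independent evidence of a difference between genotypes. Pcna, the sliding clamp of DNA replication, was picked after its values were seen, so it is not independent evidence on these arrays. Pcna stood at 9.96, 9.14, 9.35 and 9.07 in Astro-D2KO SE mice and at 10.47, 10.07, 10.12 and 9.14 in control SE mice. The same 2 arrays lay nearest to the other genotype. Its difference without both arrays was -0.95 ± 0.17 and did not pass (adjusted p = 0.435). The difference for Dio2 was -0.05 ± 0.49 with all arrays and -0.82 ± 0.19 without both (adjusted p = 0.598). Why these arrays stand apart was not tested.

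**Figure D5:**
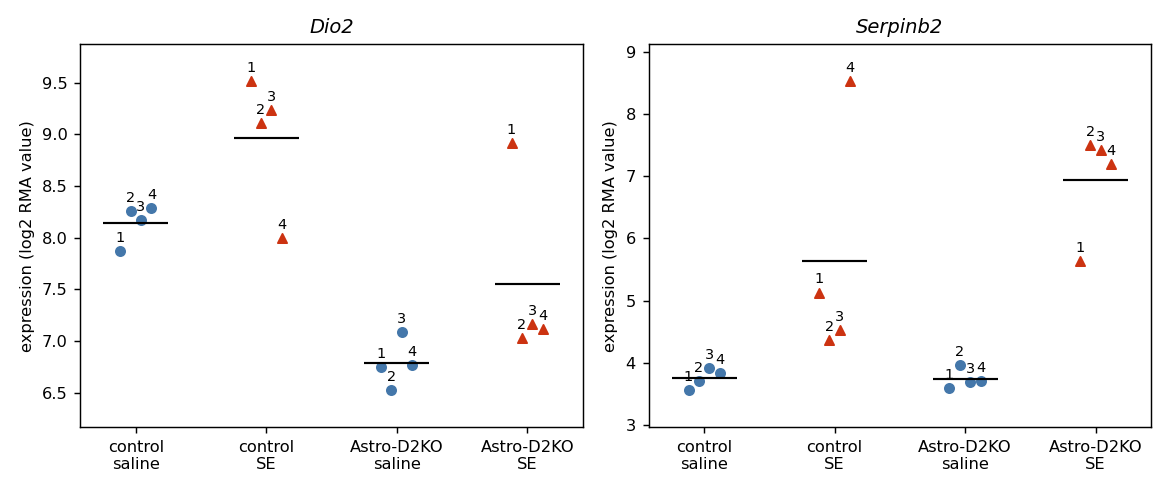
Expression (log2 RMA value, y axis) of Dio2 (left) and Serpinb2 (right) in the 16 mice by group, with saline as circles, SE as triangles, the replicate number above each point and a bar at each group mean. The array labelled Astro-D2KO SE replicate 1 is high for Dio2 and low for Serpinb2 within its group, and the array labelled control SE replicate 4 is low for Dio2 and high for Serpinb2.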

How the data were processed

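Total RNA of mouse hippocampus was hybridised to Affymetrix arrays, 1 per mouse, 4 mice in each of 4 groups. The deposited values were made by the authors with RMA, which corrects background, normalises by quantiles and summarises probe sets, per the submitters' processing notes. They were read as log2, since the deposited table runs from 1.70 to 13.79 with array medians from 5.77 to 5.82; no label names the base. Arrays have no read depth, and the number of mice limits the precision.

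Of 41345 probe sets, 23521 had exactly 1 gene symbol, 1814 several and 16010 none, by the platform annotation; 23328 were matched in RefSeq. For 1082 genes with several probe sets the one with the highest mean was used, which gave 22180 genes with no filter on level. The 16 arrays were fitted together in limma 3.58.1 (R 4.3.3) with a mean for each group (lmFit, eBayes defaults, two-sided). Exact permutation tests used scipy. On simulated data for Astro-D2KO SE minus saline with 22180 genes, the fit recovered 45 of 67 changes of 0.5, 64 of 67 of 1 and 66 of 66 of 2, with 9 false calls beside 175 true ones. Only these genes were changed, and normal noise was drawn independently for each gene. In the data 20.1% of the genes were called and arrays deviated over many genes. The simulated rates therefore need not hold for the data.

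Gene lists are described by counts and medians, with no test of the list. Named genes were the 15 largest rises and falls without overlap, up to 3 called members per list, the 10 smallest p of the difference between genotypes, and the thyroid list; other members are named where a count was 5 or fewer, and these were chosen after their values were seen. The members and lists were chosen with earlier results of these data known. Same-numbered saline and SE mice did not deviate together (residual correlations from -0.168 to 0.00365), so numbers were not used to pair mice. Alternatives changed the arrays, scaling, filter, probe sets, prior, weights, block and fold minimum. Promoter and miRNA sequences are RefSeq, GRCm38.p6, matched by Entrez gene identifier. The share of promoters with a motif is given only where at least 80% of a list had a window.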

Additional observations from a re-analysis of the deposited data

Results flagged for a closer look

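In 18 of the 274 sets of 4 arrays that were examined (137 named genes in 2 Astro-D2KO groups), the gap of 1 array to its neighbours was large against the range of the set; chance gives about 1 in 20 such sets. Values below are log2, with the range of the other 3 arrays of the group. In the array labelled Astro-D2KO SE replicate 1, Dio2 was high at 8.91 (7.03 to 7.17), as were Crym at 8.80 (8.16 to 8.23), 4933412O06Rik at 6.07 (5.07 to 5.24) and Cacng8 at 9.58 (9.45 to 9.47), while Serpinb2 was low at 5.63 (7.20 to 7.50). In Astro-D2KO saline replicate 4, the induced genes Ccl3 at 7.71 (5.73 to 6.00), Zfp36 at 7.19 (5.54 to 5.68) and Egr1 at 7.27 (6.80 to 6.85) were high, with Slc16a1 at 8.86 (8.24 to 8.30). In saline replicate 3, Nptx2 was low at 6.47 (8.12 to 8.29) and Slc7a5 at 8.74 (9.11 to 9.16), and Chrm3 at 8.43 (7.92 to 7.94), Slc7a8 at 10.52 (10.39 to 10.40) and Zfp932 at 8.25 (7.60 to 7.70) were high. In SE replicate 4, Egr1 at 10.25 (9.97 to 10.02), Kcna2 at 8.80 (8.46 to 8.49) and Plk3 at 8.13 (7.93 to 7.95) were high, and in SE replicate 3 Vmn2r85 was at 3.28 (2.67 to 2.75).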

How the results depend on the processing

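The counts of 1661 rises and 2798 falls stayed within 1.5 times under every alternative run except a minimum change of 1.5-fold, which left 727 and 482. Leaving out each of the 16 arrays in turn gave 1335 to 1757 rises, 2151 to 2950 falls, 0 to 0 calls for the difference between genotypes, and -1.46 to -1.28 for Dio2 under saline. The share of rises among called genes was 37.3%, 44.0% with each array centred on its median and 41.1% with quantile normalisation repeated. With the replicate number as a block there were 1569 rises and 2540 falls and 0 calls for the difference; the numbers do not pair the mice, and the block ended the calls of Hspb1, Stat2 and Calb2. Without both arrays that stood apart on Dio2, the difference between genotypes called 1 gene, and the Dio2 difference under saline passed across all genes (-1.36, limma adjusted p = 0.00027). The 2 arrays left out are SE arrays picked by their Dio2 values. The saline difference itself did not change, and its standard error went from 0.35 to 0.12, so the pass rests on that choice. The 1 gene called for the difference between genotypes was Serpinb2. These arrays were its lowest Astro-D2KO SE and highest control SE values, so that call rests on the choice too. Of 113 named genes that were called, 89 kept the call in every alternative and 24 lost it in at least 1, none with a change of sign. Differences near 0 changed sign: Dio3 was 0.0185 with centring, 0.0103 with array weights and 0.0152 without both arrays, and ran from -0.06435 to 0.0315 without single arrays; Slc16a10 was 0.0154 without both arrays and ran from -0.160 to 0.0154 without single arrays, and Thrb ran from -0.135 to 0.0112. The simulated data did not cover the difference between genotypes, and absence of a call there does not show equal responses.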

Other observations

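Several large rises belonged to none of the lists and were picked after their values were seen. Genes of the extracellular matrix and its remodelling were among them. Acan, which encodes aggrecan, the core proteoglycan of perineuronal nets, rose by 2.64 ± 0.17 (limma adjusted p = 1.77e-08), from between 5.90 and 6.06 to between 8.37 and 8.87. Thbs1, thrombospondin 1, a matrix protein that astrocytes secrete, rose by 2.40 ± 0.21, and Tll1, a metalloprotease of the tolloid family, by 2.29 ± 0.37. Stc1, the secreted hormone stanniocalcin 1, rose by 2.23 ± 0.26. Tnfrsf23, a decoy receptor of the TNF receptor family, rose by 2.78 ± 0.22, Tiparp, a poly-ADP-ribose polymerase of the dioxin receptor pathway, by 2.21 ± 0.21 and the imprinted gene Zdbf2 by 2.08 ± 0.13. The rise of Acan was 2.13 in control mice, and the difference of 0.51 ± 0.24 was not called (unadjusted p = 0.051).

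Some falls outside the lists were also picked after their values were seen. Cep70, a centrosomal protein, stood at 7.72, 7.53, 7.68 and 7.61 under saline and at 6.30, 6.85, 6.43 and 6.57 after SE, and fell by 1.10 ± 0.11. Cep97, which caps centrioles, fell by 1.02 ± 0.10, and Cc2d2a, of the transition zone of the cilium, by 1.03 ± 0.076. Pot1a, which protects telomere ends, fell by 1.03 ± 0.11 and Narf, a prelamin A binding protein, by 1.05 ± 0.095. No gene in this paragraph passed the test of the difference between genotypes.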
